A study of Mus musculus with 6 samples.

Results

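The 9 genes described here write, copy and remove DNA methylation in the mouse. They are Dnmt1, Dnmt3a, Dnmt3b, Dnmt3l, Uhrf1, Tet1, Tet2, Tet3 and Tdg. They were taken by gene name from the transcript tables of the 6 libraries, and all 9 of them were found among 49203 named genes. A gene's level is the sum of the FPKM of its named transcripts (fragments per kilobase of transcript, set against library depth), scaled between libraries. FPKM is per length, so levels of different genes are set side by side on this scale.

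DNA methylation in mammals sits mostly on the cytosine of CpG pairs. When DNA is replicated the new strand is unmethylated, and UHRF1 binds such half-methylated sites and brings in DNMT1, which copies the mark. DNMT3A and DNMT3B place methylation on unmethylated DNA, and DNMT3L, which has no activity of its own, helps them in germ cells. The TET enzymes oxidise methylcytosine, and TDG, a DNA glycosylase, cuts out the more oxidised forms so that base excision repair can restore cytosine.

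The study measured total RNA of mouse Sertoli cell lines, the somatic support cells of the testis tubule. The GFP-positive lines (replicates 2, 4 and 7) express a GFP reporter carried by the Y chromosome, and the GFP-negative lines (replicates 9, 11 and M) do not, so both groups have 3 libraries. Strain, age, the promoter of the reporter and how the lines were made are not given in the labels. The question is what differs between lines with and without expression of the reporter. Nothing in the labels says that the replicates are separate cultures or animals. The p-values then reflect only how these samples spread, and that spread may be technical.

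The GFP-positive libraries held 11.2 to 11.8 Gb of aligned bases, against 8.25 to 10.02 Gb in the GFP-negative libraries. Their summed FPKM was 668557 to 747404 in GFP-positive and 292449 to 470070 in GFP-negative libraries. Transcripts under 300 nt held 6.02% to 6.43% of it in GFP-positive and 1.80% to 4.53% in GFP-negative libraries. On the first principal component, which held 58.0% of the variance, GFP-positive 2, 4 and 7 lay at 72.8, 56.9 and 68.1, against -21.7 in GFP-negative 9 and -98.9 and -77.2 in GFP-negative 11 and M, so GFP-negative 9 stood between the others. Of 16 Sertoli markers, 15 passed the filter on low values, 11 of them higher and 4 lower in GFP-positive libraries (median log2 difference 0.29). Of the 15, 1 rose and 2 fell, where 11.9% of all tested genes rose and 8.55% fell. Dmrt1, a testis transcription factor gene, rose (log2 change 1.15, SE 0.23, adjusted p = 0.0174), and the transcription factor genes Sox9 (-1.86, SE 0.31, adjusted p = 0.0133) and Gata4 (-1.77, SE 0.49, adjusted p = 0.0406) fell. The summed level of the Sertoli markers was 1644 to 3423 scaled FPKM in GFP-positive and 783 to 3097 in GFP-negative libraries. A sum does not show that each marker was present in each library. Dmrt1 and Sox9 were not called without GFP-positive 7 (adjusted p = 0.0784 and 0.0681) or GFP-negative M (0.0725 and 0.0685), and with 1 library left out Gata4 passed only without GFP-negative 11 (0.0334, and 0.0677 to 0.142 without any other). Gata4 was also lost with no filter (0.114) and with the trend of levels along transcript length removed (0.146), and on a scale with an equal sum of FPKM per library Dmrt1 differed by 0.07 (0.877). Germ cell markers summed to 35.2 to 153 scaled FPKM in GFP-positive and 1.55 to 3.43 in GFP-negative libraries, 6 of 9 tested rose (1 of them without GFP-positive 7 or without GFP-negative M), and the spermatid genes Prm1 and Prm2 were listed at 0 in all 6 libraries. The filter let such genes through by their GFP-positive levels, so that count is no support by itself. With no filter 2 of the 14 listed rose, against 750 of 37868 genes over all. In bulk samples, fewer cells of a type and less RNA per cell cannot be told apart.

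Changes were tested with limma on log2(scaled FPKM + 0.5), a scale that understates the change of low genes, with p-values adjusted over all 18893 tested genes and a threshold of 0.05. Of the 9 genes, 7 passed the filter (a mean of at least 0.5 scaled FPKM over the 6 libraries), and Tet1 and Dnmt3l did not. Tet3 and Dnmt3a fell in the GFP-positive libraries, and none of the 7 rose. Across all tested genes, 8.55% fell, 11.9% rose and 20.4% changed either way. The groups did not overlap in 6 of the 7, with Uhrf1 and Dnmt3b higher and Dnmt3a, Tet2, Tet3 and Tdg lower in GFP-positive libraries. Over all tested genes 43.2% did not overlap, 22.4% higher and 20.7% lower in GFP-positive libraries. The median log2 difference of the 7 was -0.76, against 0.01 over all tested genes. It was -0.55 with unnamed transcripts added, against 0.03 over all genes tested that way. With the trend of levels along transcript length removed, Tet3 differed by -1.69, Dnmt3a by -1.36, Dnmt1 by -0.42, Tet2 by -0.25 and Tdg by -0.07. Dnmt3b then differed by 0.77 and Uhrf1 by 1.16. With unnamed transcripts added to their genes 3 of the 7 fell, where 13.7% of all tested genes fell, 16.6% rose and 30.3% changed either way. With an equal sum of FPKM in each library, a scale on which the median of all genes stood at -0.89, 6 of 8 tested members fell, where 39.5% of all genes fell, 2.93% rose and 42.5% changed either way.

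**Figure D1:**
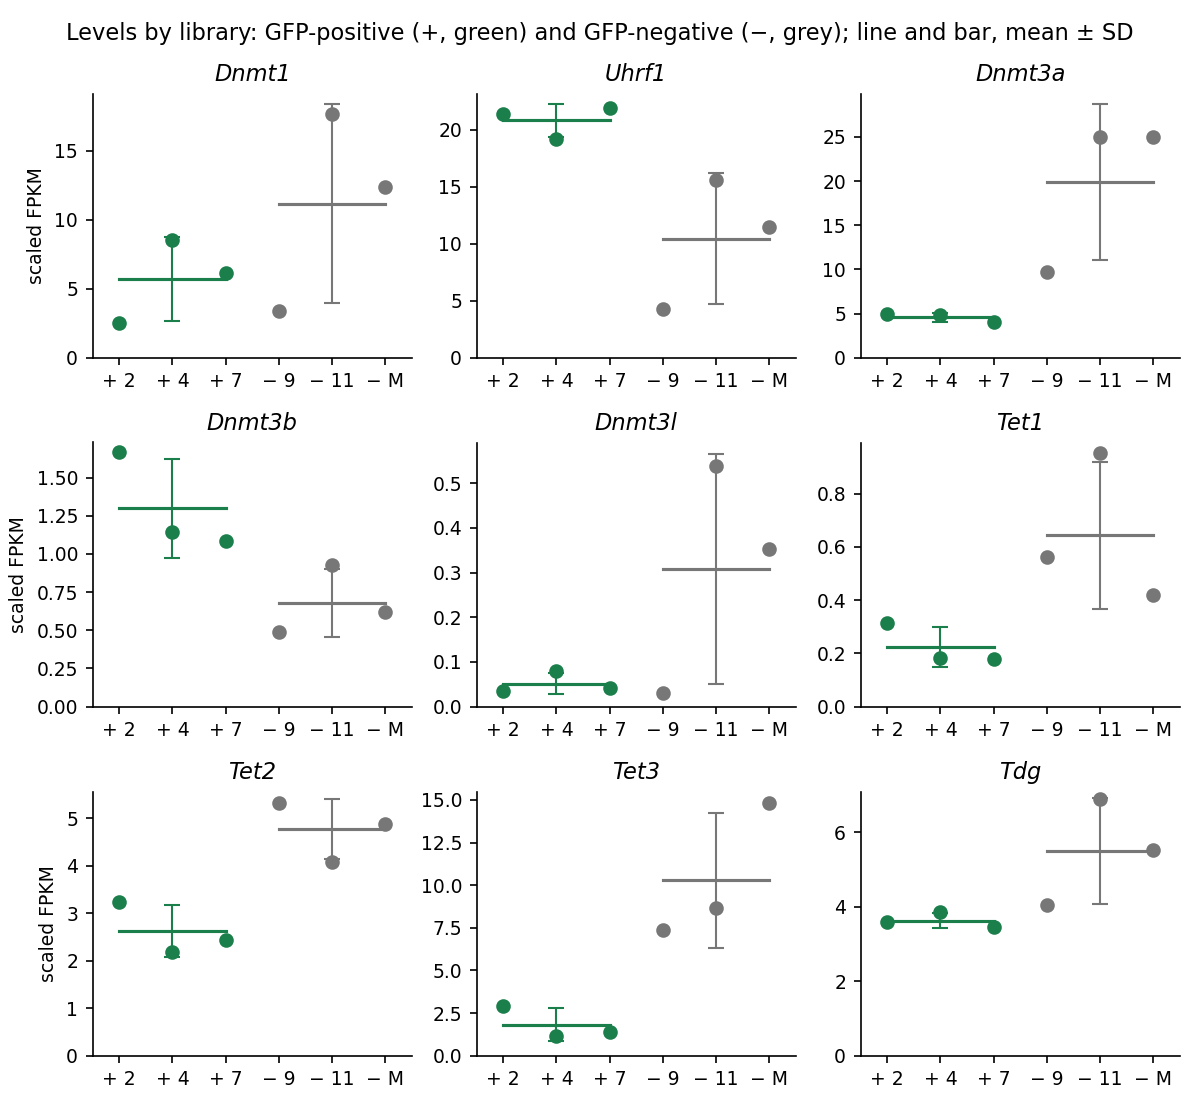
Level of each of the 9 genes in each library in scaled FPKM, with GFP-positive libraries (green, left) before GFP-negative libraries (grey, right). Lines are means and bars SD over 3 libraries. Dnmt3a lay between 4.00 and 4.93 in GFP-positive and between 9.69 and 24.96 in GFP-negative libraries.

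The sequences around start sites of the maintenance pair, Uhrf1 and Dnmt1, and of the 2 genes that fell are shown first, since transcript forms differ in their start or end in these genes. They are RefSeq windows on GRCm38.p6, each running from 250 bases before to 50 bases after an annotated start, 5′ to 3′ on the gene's strand. The capitals mark words of the kind bound by E2F factors, which switch on genes for DNA replication. The words searched on both strands were TTTCCCGC, TTTCGCGC, TTTGCCGC and TTTGGCGC, and none of these is contained in another. The Dnmt1 window is chr9:20952574-20952873 (minus strand), the Uhrf1 windows are chr17:56303087-56303386 and chr17:56304063-56304362 (plus strand), the Dnmt3a window is chr12:3806730-3807029 (plus strand) and the Tet3 window is chr6:83441629-83441928 (minus strand).
Dnmt1: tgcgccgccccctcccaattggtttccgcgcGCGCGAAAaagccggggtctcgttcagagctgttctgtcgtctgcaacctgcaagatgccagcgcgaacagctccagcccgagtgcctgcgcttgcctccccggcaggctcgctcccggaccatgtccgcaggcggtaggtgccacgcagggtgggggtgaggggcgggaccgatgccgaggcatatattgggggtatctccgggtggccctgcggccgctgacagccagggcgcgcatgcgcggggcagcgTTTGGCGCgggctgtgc
Uhrf1 upstream start: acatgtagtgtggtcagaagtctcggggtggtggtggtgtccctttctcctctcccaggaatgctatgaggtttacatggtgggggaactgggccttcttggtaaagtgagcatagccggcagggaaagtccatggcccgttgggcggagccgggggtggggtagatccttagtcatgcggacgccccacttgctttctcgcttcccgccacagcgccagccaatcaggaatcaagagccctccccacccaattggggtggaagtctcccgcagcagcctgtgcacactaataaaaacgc
Uhrf1 downstream start: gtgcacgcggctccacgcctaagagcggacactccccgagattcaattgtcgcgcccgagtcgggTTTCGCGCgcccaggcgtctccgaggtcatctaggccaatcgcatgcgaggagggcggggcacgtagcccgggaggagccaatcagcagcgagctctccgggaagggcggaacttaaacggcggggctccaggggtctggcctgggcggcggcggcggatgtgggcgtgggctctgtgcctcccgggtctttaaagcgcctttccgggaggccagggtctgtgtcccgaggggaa
Dnmt3a: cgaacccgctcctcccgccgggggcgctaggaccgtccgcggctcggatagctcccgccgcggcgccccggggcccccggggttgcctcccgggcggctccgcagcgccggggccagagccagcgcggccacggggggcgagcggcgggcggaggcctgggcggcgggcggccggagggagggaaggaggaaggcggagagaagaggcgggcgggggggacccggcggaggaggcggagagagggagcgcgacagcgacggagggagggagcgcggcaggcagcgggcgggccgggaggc
Tet3 downstream start: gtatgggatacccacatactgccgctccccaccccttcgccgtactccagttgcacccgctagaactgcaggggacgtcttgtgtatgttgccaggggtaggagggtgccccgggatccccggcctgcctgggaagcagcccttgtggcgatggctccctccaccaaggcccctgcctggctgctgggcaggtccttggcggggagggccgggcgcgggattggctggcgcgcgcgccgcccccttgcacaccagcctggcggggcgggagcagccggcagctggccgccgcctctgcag

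Of the 32851 RefSeq windows of this length, 2.26% hold at least 1 of the 4 words. RefSeq had 16 windows for the 9 genes, and 2 of them held a word, the printed Dnmt1 window and that of the downstream Uhrf1 start. In Dnmt1, GCGCGAAA (the reverse complement of TTTCGCGC) began at base 32 and TTTGGCGC at base 284 of the window. This window lies 106 to 405 bp downstream of the annotated start of the leading Dnmt1 transcript, whose own window held no word. The printed Dnmt1 window serves the minor transcripts ENSMUST00000178110 and ENSMUST00000216540, which held at most 6.13% and 5.96% of the locus in any library. In Uhrf1, TTTCGCGC began at base 66. For the other windows no match says only that these letters are not in these 300 bases. The printed windows held 33 CpG in Dnmt1, 12 and 33 at the upstream and downstream Uhrf1 starts, 46 in Dnmt3a and 22 in Tet3, against a median of 7 over all windows (quartiles 3 and 20). The window of the leading Dnmt1 start, not printed, held 12 CpG.

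Uhrf1, the reader that brings in DNMT1, had the highest level of the 9 genes in the GFP-positive libraries. On mm39, the build of the tables, it lies on chromosome 17 from 56610321 to 56630486 on the plus strand. It stood at 21.4, 19.2 and 21.9 scaled FPKM in GFP-positive 2, 4 and 7, against 4.27, 15.6 and 11.5 in GFP-negative 9, 11 and M. On this scale all 3 GFP-positive libraries were above all 3 GFP-negative ones, which differed widely among themselves, with GFP-negative 9 the lowest. The means were 20.8 ± 1.46 in GFP-positive libraries and 10.4 ± 5.73 in GFP-negative ones (SD, n = 3 each). The log2 difference of 1.13 (SE 0.43) did not pass the test across all genes in limma (adjusted p = 0.0936). Without GFP-negative 9 it was 0.62 (adjusted p = 0.0942). With an equal sum of FPKM per library it was 0.07 (limma adjusted p = 0.928), so the separation depended on the scaling.

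Uhrf1 transcripts began at a pair of nearby places. The upstream start, without a word above, carried 9.70, 12.8 and 11.6 scaled FPKM in GFP-positive 2, 4 and 7, while GFP-negative 9, 11 and M had 4.17, 6.80 and 8.73, and its groups did not overlap. Starts 913 to 1086 bp further downstream carried 11.3, 5.91 and 9.92 scaled FPKM in the GFP-positive libraries, against 0.0547, 8.53 and 2.69 in the GFP-negative ones. The downstream start was thus nearly empty in GFP-negative 9, where the upstream one held 97.8% of the gene, and its groups overlapped. The upstream share was 45.4%, 66.6% and 53.0% in GFP-positive 2, 4 and 7 and 97.8%, 43.6% and 76.1% in GFP-negative 9, 11 and M. The transcripts of both places have up to 17 exons and share most of their length, so the split between them is an estimate of the assembler. The start groups were chosen after their values were seen and are given as a description. The share of the leading Uhrf1 transcript, ENSMUST00000001258 of the upstream start, was 36.0% ± 1.48 in GFP-positive libraries and 49.4% ± 14.9 in GFP-negative ones (SD, n = 3 each, exact two-sided permutation p = 0.1, the smallest that 3 against 3 libraries allow). GFP-positive 4 at 37.1% and GFP-negative 11 at 37.4% nearly met, and the difference of -13.5 percentage points was -5.15 without GFP-negative 9.

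Dnmt1, the maintenance methyltransferase (chromosome 9, 20818505 to 20871184, minus strand), had a lower mean in the GFP-positive libraries, unlike Uhrf1, with wide spread in both groups. Its named transcripts summed to 2.49, 8.55 and 6.10 scaled FPKM in GFP-positive 2, 4 and 7, against 3.40, 17.6 and 12.4 in GFP-negative 9, 11 and M. The groups overlapped, since GFP-negative 9 was lower than GFP-positive 4 and 7. The means were 5.71 ± 3.05 in GFP-positive libraries and 11.1 ± 7.20 in GFP-negative ones (SD, n = 3 each), a log2 difference of -0.78 (SE 0.62) that did not pass in limma (adjusted p = 0.372). With 1 library left out it lay between -0.33 (without GFP-positive 2 or GFP-negative 11) and -1.44 (without GFP-negative 9, adjusted p = 0.0608), and it was -0.42 with the length trend removed.

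Much of the Dnmt1 locus was assigned to an assembled transcript without a gene name, and its share was uneven between libraries. That transcript has 39 exons and the same first base as the leading named transcript, ENSMUST00000004202, and runs 335 bp further at its 3′ end. It carried 8.19, 1.30 and 5.62 scaled FPKM in GFP-positive 2, 4 and 7, against 3.58, 6.74 and 2.05 in GFP-negative 9, 11 and M. The named one carried 1.44, 6.95 and 3.39 in GFP-positive 2, 4 and 7, against 2.21, 14.9 and 10.7 in GFP-negative 9, 11 and M. Within the GFP-positive group the library with the most of one form had the least of the other. Together the forms gave 9.63, 8.25 and 9.01 scaled FPKM in the GFP-positive libraries, against 5.79, 21.6 and 12.8 in the GFP-negative ones. With unnamed transcripts counted, the gene had a mean of 10.7 ± 0.957 in GFP-positive libraries and 15.6 ± 8.86 in GFP-negative ones (SD, n = 3 each) and a log2 difference of -0.37 (SE 0.40, limma adjusted p = 0.4996).

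**Figure D2:**
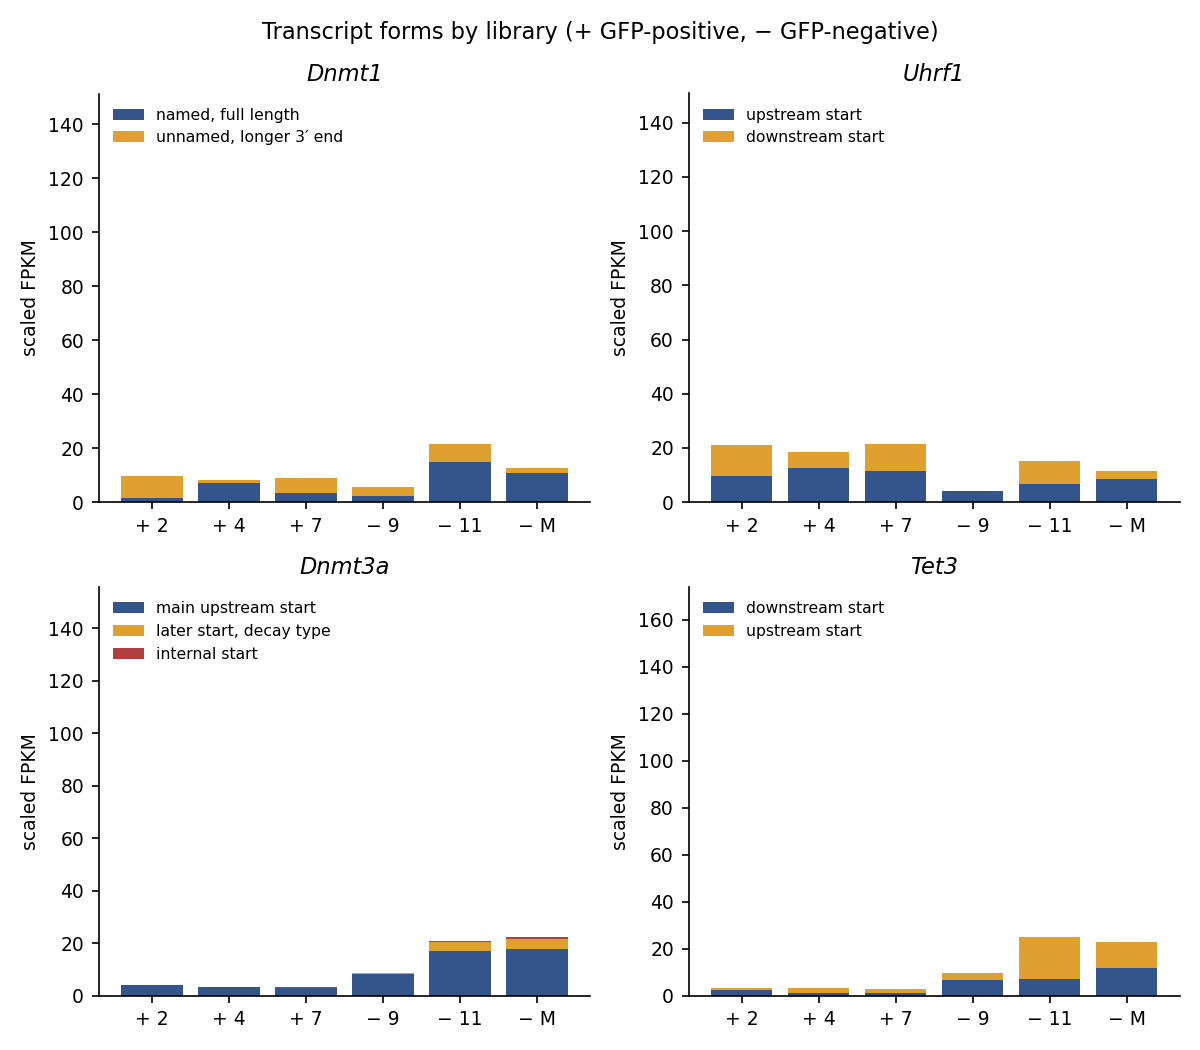
Transcript forms of 4 genes in each library, stacked in scaled FPKM, with GFP-positive libraries (+) left of GFP-negative libraries (−). Dnmt1 is split by its named full-length form and the unnamed form with a longer 3′ end, and Uhrf1, Dnmt3a and Tet3 by start site. The decay type of Dnmt3a held at most 0.74% of the gene in GFP-positive and 3.27% to 15.4% in GFP-negative libraries.

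The balance of the maintenance pair differed between all libraries of the groups. The log2 ratio of Uhrf1 to Dnmt1 was 2.87, 1.12 and 1.76 in GFP-positive 2, 4 and 7, against 0.29, -0.17 and -0.11 in GFP-negative 9, 11 and M. The lowest GFP-positive ratio was above the highest GFP-negative ratio, and the difference of 1.91 had an exact two-sided permutation p of 0.1, or 0.214 adjusted over the 15 single values tested this way. With unnamed transcripts counted the ratios drew together within the groups, at 0.97, 0.93 and 0.88 in the GFP-positive and -0.65, -0.63 and -0.32 in the GFP-negative libraries. Each ratio is taken within 1 library, so it is the same under any scaling of whole libraries apart from the added 0.5.

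Both genes are known to be expressed in S phase, so each was also set against the mean log2 level of 10 replication genes (6 Mcm genes, Pcna, Rfc4, Gins2 and Cdc6) of the same library. Uhrf1 stood 0.88, 0.95 and 0.87 above it on the log2 scale in GFP-positive 2, 4 and 7, against 0.12, 0.69 and 0.95 in GFP-negative 9, 11 and M, so the groups overlapped (difference 0.31, exact two-sided permutation p = 0.3). Without GFP-negative 9 this difference was 0.08. Dnmt1 stood at -1.99, -0.17 and -0.89 in the GFP-positive libraries, against -0.17, 0.86 and 1.05 in the GFP-negative ones. The difference for Dnmt1 was -1.60 (exact two-sided permutation p = 0.1), and the closest libraries, GFP-positive 4 and GFP-negative 9, nearly met. With unnamed transcripts counted, Uhrf1 stood at 0.83, 0.78 and 0.84 in GFP-positive 2, 4 and 7, against -0.09, 0.43 and 0.75 in GFP-negative 9, 11 and M, so that the groups no longer overlapped, though GFP-positive 4 and GFP-negative M nearly met (difference 0.46, exact two-sided permutation p = 0.1). Dnmt1 then stood at -0.14, -0.15 and -0.03 in GFP-positive 2, 4 and 7, against 0.56, 1.06 and 1.06 in GFP-negative 9, 11 and M.

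Dnmt3a, a methyltransferase for new sites (chromosome 12, 3856007 to 3964871, plus strand), fell in the GFP-positive libraries. It stood at 4.93, 4.80 and 4.00 scaled FPKM in GFP-positive 2, 4 and 7, against 9.69, 24.96 and 24.9 in GFP-negative 9, 11 and M. The GFP-positive libraries were close together, and GFP-negative 9 lay between them and the other GFP-negative libraries. The means were 4.58 ± 0.507 in GFP-positive libraries and 19.9 ± 8.81 in GFP-negative ones (SD, n = 3 each), a log2 change of -1.89 (SE 0.38, limma adjusted p = 0.0185). The call was lost without GFP-positive 4 (adjusted p = 0.0503), without GFP-positive 7 (0.0784), without GFP-negative 11 (0.0526) or M (0.0826), with no filter (0.0584), and with the trend of levels along transcript length removed (log2 difference -1.36, adjusted p = 0.0581).

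Most Dnmt3a RNA began at the upstream start whose window is printed above, which serves the long coding transcripts of 23 exons. Transcripts from that place carried 3.91, 3.34 and 3.02 scaled FPKM in GFP-positive 2, 4 and 7, against 8.32, 16.9 and 17.8 in GFP-negative 9, 11 and M. The second transcript by mean level in the GFP-negative libraries, and in GFP-negative 11 and M, was ENSMUST00000174483, which the GENCODE annotation of GRCm38 classes as a target of nonsense-mediated decay. It carried 0.00488, 0.0354 and 0 scaled FPKM in GFP-positive 2, 4 and 7, against 0.317, 3.52 and 3.85 in GFP-negative 9, 11 and M. The decay-class form was close to 0 in all GFP-positive libraries and higher in GFP-negative 11 and M than in GFP-negative 9. How Dnmt3a RNA was split among its forms is again an estimate of the assembler, given as a description. The internal start, 84.7 kb downstream of the main one, serves a shorter coding form known from mouse germ and embryonic stem cells. Its transcript that reaches the 3′ end of the gene, ENSMUST00000111186, was listed at 0 in all 6 libraries. What was assigned there, at most 0.246 scaled FPKM in GFP-positive libraries and 0.556 in GFP-negative ones, belonged to ENSMUST00000172689, which ends earlier. The share of the leading transcript, ENSMUST00000020991, was 61.8% ± 21.4 in GFP-positive libraries and 71.4% ± 7.88 in GFP-negative ones (SD, n = 3 each), with overlap.

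Dnmt3b, the other methyltransferase for new sites (chromosome 2, 153491370 to 153529650, plus strand), was low in all libraries and higher in the GFP-positive ones without passing the test. It stood at 1.67, 1.14 and 1.08 scaled FPKM in GFP-positive 2, 4 and 7, against 0.490, 0.929 and 0.617 in GFP-negative 9, 11 and M. The groups did not overlap, but GFP-positive 7 and GFP-negative 11 were close. The means were 1.30 ± 0.322 in GFP-positive libraries and 0.679 ± 0.226 in GFP-negative ones (SD, n = 3 each), and the log2 difference of 0.61 (SE 0.30) did not pass in limma (adjusted p = 0.165). On the equal-sum scale the difference was -0.10. Nearly all of Dnmt3b, 83.9% to 95.9% in each library, came from 10 spliced forms that share a start, and no single form led in all libraries. The highest was ENSMUST00000072997 in GFP-positive 2, ENSMUST00000103151 in GFP-positive 4 and 7, ENSMUST00000109774 in GFP-negative 9 and ENSMUST00000103150 in GFP-negative 11 and M.

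Dnmt3l, the cofactor without activity of its own (chromosome 10, 77877781 to 77899456, plus strand), was under the filter. It stood at 0.0344, 0.0790 and 0.0415 scaled FPKM in GFP-positive 2, 4 and 7, against 0.0303, 0.538 and 0.352 in GFP-negative 9, 11 and M. GFP-negative 9 was the lowest of all 6, so the groups overlapped. ENSMUST00000138785 held most of it in each library. In the fit with no filter the log2 difference was -0.50 (SE 0.24, limma adjusted p = 0.282).

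The mix of the DNMT3 genes differed between all libraries of the groups. Dnmt3b made up 25.2%, 19.0% and 21.2% of the summed FPKM of Dnmt3a, Dnmt3b and Dnmt3l in GFP-positive 2, 4 and 7, against 4.80%, 3.51% and 2.38% in GFP-negative 9, 11 and M. GFP-negative 9 sat with the other GFP-negative libraries in this share. The means were 21.8% ± 3.13 in GFP-positive libraries and 3.57% ± 1.21 in GFP-negative ones (SD, n = 3 each), a difference of 18.2 percentage points (exact two-sided permutation p = 0.1, or 0.214 adjusted over 15 values). Dnmt3a held nearly all of the rest, 77.4% ± 2.75 in GFP-positive libraries and 95.2% ± 0.941 in GFP-negative ones. Shares within a library do not depend on the scaling.

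**Figure D3:**
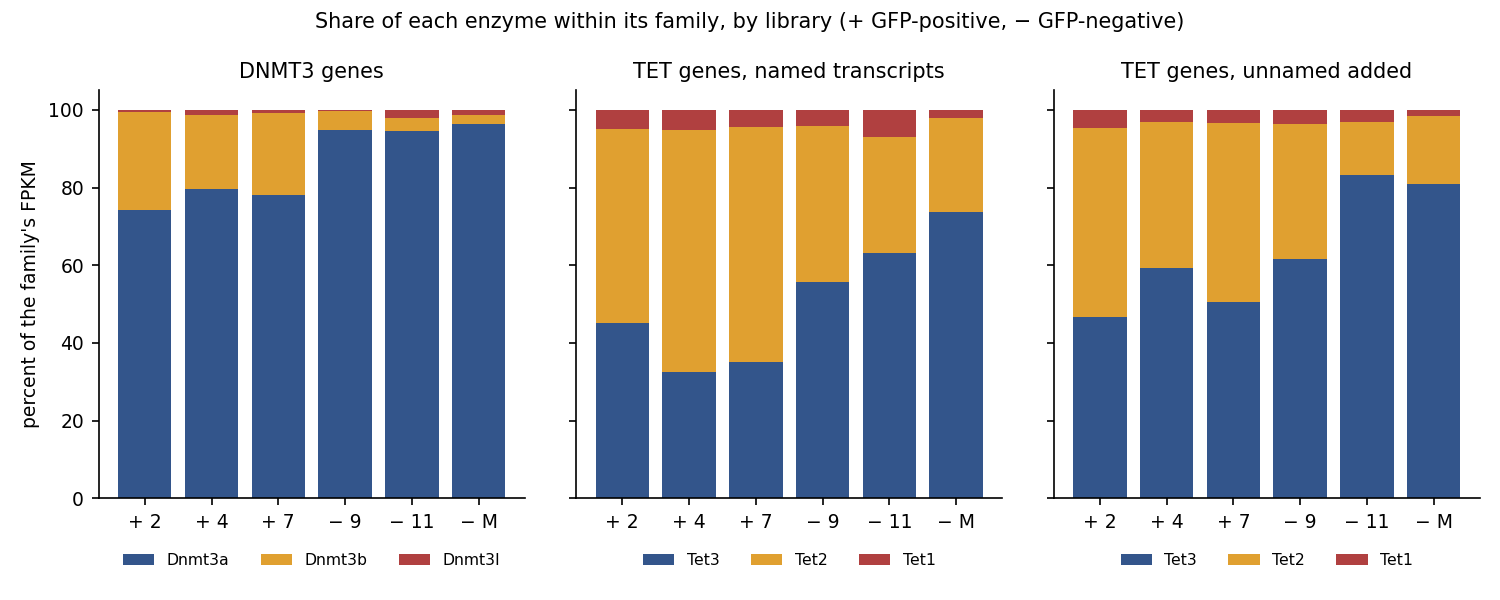
Share of each gene in the summed FPKM of its family in each library (percent), for the DNMT3 genes, for the TET genes by named transcripts and for the TET genes with unnamed transcripts added. GFP-positive libraries (+) are left of GFP-negative libraries (−). The Tet2 share by named transcripts was 50.1% to 62.4% in GFP-positive and 24.3% to 40.2% in GFP-negative libraries.

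Tet3, one of the oxidising enzymes (chromosome 6, 83339355 to 83436066, minus strand), had the largest change of the 7 tested genes by named transcripts. Its named transcripts summed to 2.91, 1.14 and 1.41 scaled FPKM in GFP-positive 2, 4 and 7, against 7.37, 8.68 and 14.8 in GFP-negative 9, 11 and M. The highest GFP-positive library was well below the lowest GFP-negative one. The means were 1.82 ± 0.954 in GFP-positive libraries and 10.3 ± 3.96 in GFP-negative ones (SD, n = 3 each), a log2 change of -2.23 (SE 0.38, limma adjusted p = 0.0138). The call was lost without GFP-positive 7 (adjusted p = 0.0676) or GFP-negative M (0.0685), where 30 and 35 genes of all those tested passed. With the length trend removed the log2 change was -1.69 (adjusted p = 0.0364).

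Tet3 also held 2 unnamed assembled transcripts. With them counted it stood at 3.08, 3.44 and 2.67 scaled FPKM in GFP-positive 2, 4 and 7, against 9.65, 25.3 and 23.3 in GFP-negative 9, 11 and M. GFP-negative 9 was then again the nearest to the GFP-positive libraries, as in Dnmt3a. The log2 change was -2.37 (SE 0.37, limma adjusted p = 0.00655), with means of 3.07 ± 0.381 in GFP-positive libraries and 19.4 ± 8.50 in GFP-negative ones (SD, n = 3 each). The unnamed ones begin, with ENSMUST00000186548, 14543 to 15205 bp upstream of the start whose window is printed above. Transcripts of the printed, downstream start carried 2.51, 0.967 and 1.26 scaled FPKM in GFP-positive 2, 4 and 7, against 6.82, 7.24 and 12.0 in GFP-negative 9, 11 and M. Those of the upstream start carried 0.610, 2.46 and 1.43 in the GFP-positive libraries, against 2.63, 17.6 and 10.7 in the GFP-negative ones. At both places every GFP-positive library was below every GFP-negative one, though GFP-positive 4 and GFP-negative 9 nearly met at the upstream start. The upstream share ranged from 19.5% to 70.9% in GFP-positive and from 27.8% to 70.9% in GFP-negative libraries. As for Uhrf1, the split between starts is an estimate of the assembler and is given as a description.

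Tet2 (chromosome 3, 133169440 to 133250900, minus strand), also an oxidising enzyme but without the CpG-binding CXXC domain of Tet1, was lower in each GFP-positive library without passing the test. It stood at 3.24, 2.19 and 2.44 scaled FPKM in GFP-positive 2, 4 and 7, against 5.33, 4.08 and 4.89 in GFP-negative 9, 11 and M. The groups did not overlap, and GFP-negative 9 was the highest of all. The means were 2.62 ± 0.547 in GFP-positive libraries and 4.77 ± 0.630 in GFP-negative ones (SD, n = 3 each), a log2 difference of -0.76 (SE 0.26, limma adjusted p = 0.0738). It passed when unnamed transcripts were added to all genes (-0.80, adjusted p = 0.0438), although Tet2 itself has none, and with the length trend removed it was -0.25 (adjusted p = 0.538). The leading coding transcript, ENSMUST00000098603, held 37.1% ± 12.2 of the gene in GFP-positive libraries and 42.8% ± 8.10 in GFP-negative ones, and retained-intron forms of 1 exon, ENSMUST00000199176 and ENSMUST00000200203, held much of the rest.

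Tet1, the enzyme best known from embryonic stem cells and germ cells (chromosome 10, 62640349 to 62744775, minus strand), was under the filter. It stood at 0.313, 0.181 and 0.181 scaled FPKM in GFP-positive 2, 4 and 7, against 0.561, 0.952 and 0.419 in GFP-negative 9, 11 and M. The groups did not overlap at these low levels, and in the fit with no filter the log2 difference of -0.64 (SE 0.24) did not pass in limma (adjusted p = 0.183). Its forms were uneven, and the share of the coding transcript ENSMUST00000174189 ran from 15.9% to 81.6% in GFP-positive and from 31.5% to 96.2% in GFP-negative libraries.

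Within the TET genes, the leading member differed between the groups. Tet2 held 50.1%, 62.4% and 60.6% of the family's FPKM in GFP-positive 2, 4 and 7, against 40.2%, 29.8% and 24.3% in GFP-negative 9, 11 and M. Tet3 held 45.0%, 32.4% and 35.0% in the GFP-positive libraries, against 55.6%, 63.3% and 73.6% in the GFP-negative ones. By named transcripts, Tet2 thus led in each GFP-positive and Tet3 in each GFP-negative library, and the differences of 26.3 and -26.7 percentage points each had an exact two-sided permutation p of 0.1 (0.214 adjusted over 15 values). With unnamed transcripts added, Tet3 led in GFP-positive 4 and 7 too, at 46.8%, 59.4% and 50.7% in GFP-positive 2, 4 and 7 and 61.6%, 83.1% and 81.0% in GFP-negative 9, 11 and M, and the groups still did not overlap.

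Tdg, the glycosylase that acts after the TET enzymes (chromosome 10, 82465662 to 82490148, plus strand), was lower in each GFP-positive library without passing the test. It stood at 3.58, 3.86 and 3.45 scaled FPKM in GFP-positive 2, 4 and 7, against 4.05, 6.90 and 5.53 in GFP-negative 9, 11 and M. The GFP-positive libraries were close to each other and just under GFP-negative 9. The means were 3.63 ± 0.212 in GFP-positive libraries and 5.49 ± 1.43 in GFP-negative ones (SD, n = 3 each), and the log2 difference of -0.51 (SE 0.27) did not pass in limma (adjusted p = 0.200). With the length trend removed the difference was -0.07 (adjusted p = 0.871). With its unnamed transcripts, which held 26.6% to 37.8% of the locus in GFP-positive and 28.3% to 34.7% in GFP-negative libraries, the groups overlapped and the log2 difference was -0.55 (adjusted p = 0.161). The leading named transcript, ENSMUST00000151390, held 21.2% ± 3.12 of the locus in GFP-positive libraries and 21.03% ± 2.29 in GFP-negative ones (SD, n = 3 each).

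**Figure D4:**
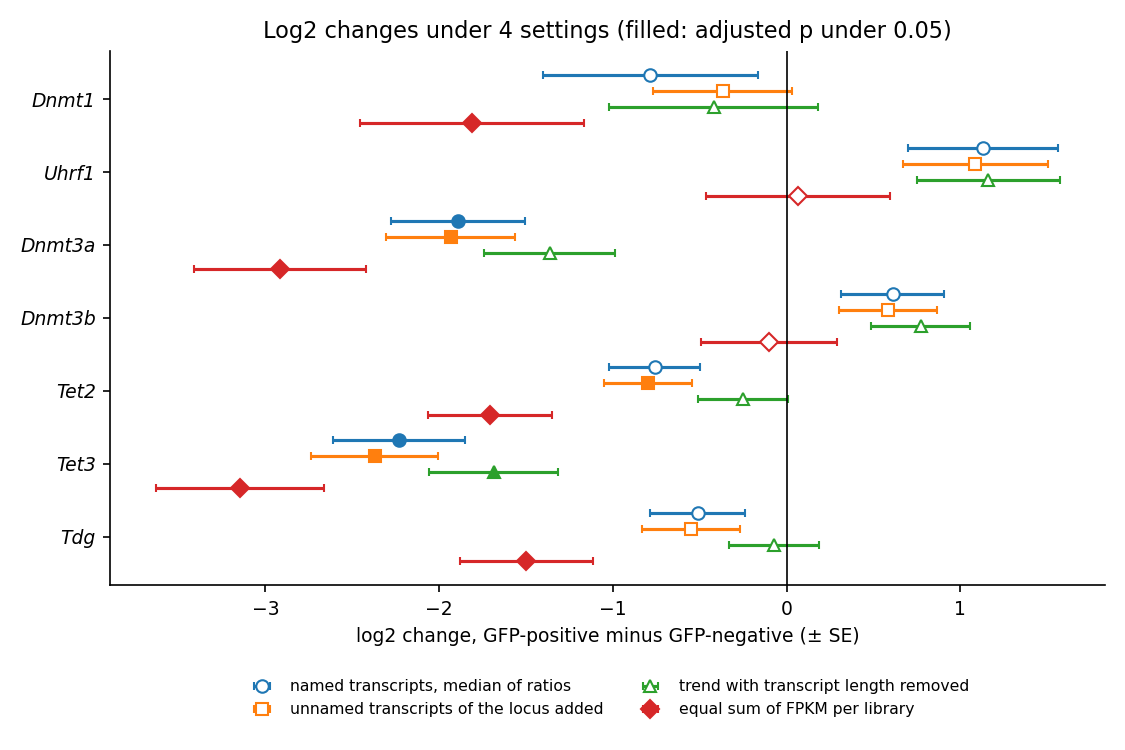
Log2 change of the 7 tested genes, GFP-positive minus GFP-negative, with SE, under 4 settings. Filled symbols passed an adjusted p of 0.05. Tet3 and Dnmt3a lay below 0 in all 4, Uhrf1 above 0 in all 4 (0.07 with an equal sum), and Dnmt3b turned to -0.10 with an equal sum of FPKM.

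The order of mean levels was not the same in the groups, and it depended on the unnamed transcripts. Overlap was judged only between neighbours in rank. By named transcripts, in GFP-positive libraries Uhrf1 was highest at 20.8 scaled FPKM, above Dnmt1 and Dnmt3a, which did not differ beyond their ranges. Tdg came next, then Tet2, Tet3 and Dnmt3b, of which neighbours overlapped, then Tet1 and Dnmt3l. Dnmt1 ran from 2.49 to 8.55 there, so its range also met those of Tdg, Tet2 and Tet3. In GFP-positive 2 Dnmt1, at 2.49, lay below Tdg at 3.58, Tet2 at 3.24 and Tet3 at 2.91. In GFP-negative libraries the first 4 by named transcripts were Dnmt3a at 19.9, Dnmt1 at 11.1, Uhrf1 at 10.4 and Tet3 at 10.3 scaled FPKM, and each overlapped the next in range. Tdg and Tet2 followed with overlap, and then Dnmt3b, Tet1 and Dnmt3l, which also overlapped. With unnamed transcripts counted, Uhrf1 at 20.6 and Dnmt1 at 10.7 scaled FPKM each stood clear of the next in GFP-positive libraries, followed by Tdg at 5.32 and Dnmt3a at 4.53, which overlapped, and by Tet3 at 3.07 and Tet2 at 2.60, which overlapped too. In GFP-negative libraries the first 4 were then Dnmt3a at 20.3, Tet3 at 19.4, Dnmt1 at 15.6 and Uhrf1 at 10.7 scaled FPKM, again with overlap between neighbours. With an equal sum of FPKM per library and relative to the median of all genes there, the log2 differences were 0.96 for Uhrf1, 0.79 for Dnmt3b, -2.26 for Tet3, -2.02 for Dnmt3a, -0.92 for Dnmt1, -0.81 for Tet2 and -0.60 for Tdg. Genes on the opposite strand that overlap Dnmt3a, Dnmt3b, Dnmt3l, Tet2, Tet3 or Tdg were listed at no more than 0.271 scaled FPKM in any library. On the same strand, 5430434F05Rik overlaps Tet3 by 3553 bp. It stood at 0.481, 0.569 and 0.687 scaled FPKM in GFP-positive 2, 4 and 7, against 0.791, 1.76 and 1.42 in GFP-negative 9, 11 and M. Gm48353 overlaps Tet1 on its strand, at no more than 0.112. How reads were split between such genes was not tested.

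Genes of replication and division rose or did not pass. Of 20 listed and tested, 10 rose and none fell, with a median log2 change of 1.11, against 0.01 over all tested genes, of which 11.9% rose. By direction alone 18 were higher and 2 lower, Mcm3 (log2 difference -0.21) and Mcm4 (-0.64). Ccnb1, a mitotic cyclin gene, stood at 54.5 ± 16.7 scaled FPKM in GFP-positive libraries and 8.80 ± 4.00 in GFP-negative ones (SD, n = 3 each; log2 change 2.60, limma adjusted p = 0.0106). Mcm7 of the replicative helicase (2.67, adjusted p = 0.0140), the cyclin gene Ccna2 (2.30, 0.0139) and the G1/S cyclin gene Ccne2 (1.75, 0.0158) also rose. No other Mcm gene of the list passed, with Mcm2 at 0.74 (0.232), Mcm5 at 1.14 (0.129) and Mcm6 at 0.74 (0.144). Of the 10 replication genes set beside Uhrf1 and Dnmt1, only Mcm7 and Pcna (1.57, 0.0297) passed. Mki67, a proliferation marker gene, differed by 0.23 (0.723). With unnamed transcripts added the change of Mcm7 was 1.18 (adjusted p = 0.0276). With no filter on low values 2 of the list rose, Ccnb1 (0.0401) and Ccna2 (0.0476), while Mcm7 (0.0506) and Ccne2 (0.0502) did not pass. Over all 37868 genes tested that way, 750 rose. The summed level of the list was 313 to 453 in GFP-positive and 91.6 to 186 in GFP-negative libraries. With an equal sum of FPKM 3 rose and 1 fell, with a median of 0.10. Without GFP-negative M 1 rose, and without GFP-positive 7 none did, when 30 genes of all passed and 5378 had an unadjusted p under 0.05.

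Of 15 tested partners of DNA methylation, Trdmt1 rose and Uhrf2 fell, where 20.4% of all tested genes changed either way, and the list median was -0.10. Trdmt1, a DNMT family member that methylates transfer RNA, stood at 3.30, 1.79 and 2.56 scaled FPKM in GFP-positive 2, 4 and 7, against 1.23, 0.400 and 0.695 in GFP-negative 9, 11 and M (log2 change 1.28, SE 0.35, limma adjusted p = 0.0383). Uhrf2, the paralogue of Uhrf1, stood at 3.52, 2.80 and 3.73 in the GFP-positive libraries, against 5.34, 7.24 and 7.94 in the GFP-negative ones (-0.92, SE 0.27, limma adjusted p = 0.0447). In scaled FPKM, Uhrf2 was lower and Uhrf1 higher in each GFP-positive library than in any GFP-negative one, though for Uhrf1 this depended on the scaling. Of 10 genes listed as methyl-CpG readers, Mbd6, listed for its domain of the methyl-CpG binding type, fell (-1.78, SE 0.52, adjusted p = 0.0466). Over all tested genes 8.55% fell, and the list median was -0.37. Binding of these proteins to methylated DNA was not measured. Leaving out any 1 library except GFP-negative 9 ended all 3 calls, with adjusted p from 0.0590 to 0.128 for Trdmt1, 0.0913 to 0.167 for Uhrf2 and 0.0774 to 0.155 for Mbd6. With all libraries kept, they were also lost with no filter (0.101, 0.0757 and 0.134 for Trdmt1, Uhrf2 and Mbd6) and with the length trend removed (0.0539, 0.0690 and 0.0732).

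Among demethylation and base excision repair genes, 2 of 19 tested rose and 1 fell, where 11.9% of all tested genes rose and 8.55% fell, and the list median was 0.26. Polb, the repair polymerase gene, stood at 24.8, 17.9 and 24.9 scaled FPKM in GFP-positive 2, 4 and 7, against 8.67, 4.80 and 3.65 in GFP-negative 9, 11 and M (log2 change 1.96, SE 0.34, limma adjusted p = 0.0140). Xrcc1, the repair scaffold gene, also rose (0.99, adjusted p = 0.0409), while Lig3, the ligase gene that works with it, fell (-0.95, adjusted p = 0.0383). On the equal-sum scale none of the list rose and 5 fell, and Trdmt1, Polb, Xrcc1 and Shmt1 did not pass (log2 differences 0.52, 0.92, -0.07 and 1.21). In the methyl donor cycle 1 of 10 tested genes rose, Shmt1 of one-carbon metabolism, at 12.8 ± 4.58 scaled FPKM in GFP-positive libraries and 2.37 ± 0.878 in GFP-negative ones (SD, n = 3 each; log2 change 2.20, limma adjusted p = 0.0120). Polb was not called without GFP-positive 7 or without GFP-negative M (adjusted p = 0.0685 each) and Shmt1 likewise (0.0590 and 0.0603). Xrcc1 lost its call when GFP-negative M or any GFP-positive library was left out (0.0880 to 0.129), and Lig3 without any library but GFP-negative 9 (0.0598 to 0.142). Both were also lost with no filter (0.0754 for Xrcc1 and 0.0655 for Lig3) and with the length trend removed (0.0924 and 0.149), where Lig3 differed by -0.59.

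Germline genes whose promoters are known to be methylated in mouse somatic cells had the highest median of the 6 lists. Of 11 listed, 10 passed the filter and all 10 of these rose, with a median log2 change of 3.54, where 11.9% of all tested genes rose. Tex101, a germ cell surface protein gene, stood at 31.0, 13.1 and 16.1 scaled FPKM in GFP-positive 2, 4 and 7, against 0.141, 0.187 and 0.112 in GFP-negative 9, 11 and M (log2 change 4.90, SE 0.35, limma adjusted p = 0.00303). Mael of the piRNA pathway (4.59, adjusted p = 0.00962), Taf7l, a germ cell transcription factor subunit gene (3.86, 0.0106), and Tex19.1, which acts on retroelements (3.78, 0.00387), followed. GFP-negative 9 sat with the other GFP-negative libraries in these genes, and GFP-positive 2 was the highest. Dazl, Ddx4, Mael, Sycp3 and Tex101 also stand in the germ cell list above, whose sum rose with these genes, and the part of germ cells in the result was not tested. The filter favoured genes that were high in GFP-positive libraries. With no filter 4 of the 11 rose, against 750 of 37868 genes over all. Without GFP-positive 7 or GFP-negative M, 2 of them passed, Tex101 (adjusted p = 0.0255 and 0.0265) and Tex19.1 (0.0320 and 0.0330). No methylation was measured here.

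**Figure D5:**
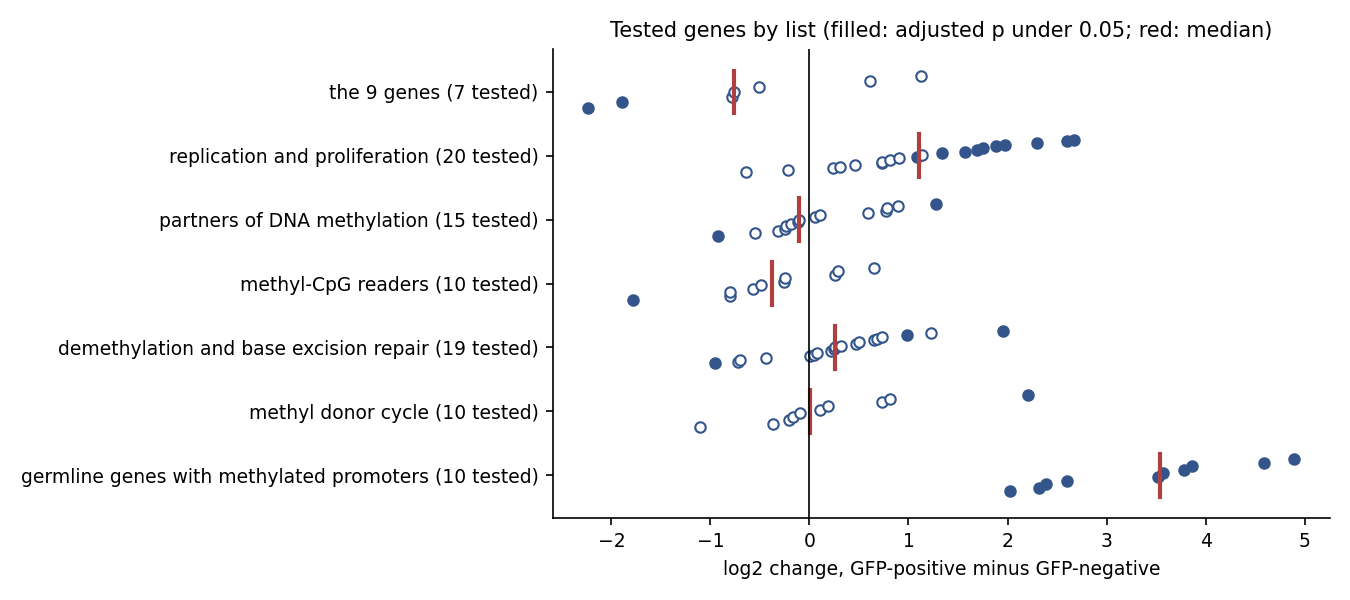
Log2 change, GFP-positive minus GFP-negative, of each tested gene of the 9 and of 6 lists. Filled points passed an adjusted p of 0.05, and red lines are list medians (-0.76 for the 9 genes, 1.11 for replication and proliferation, 3.54 for the germline genes).

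The genes most like each member were found by the root-mean-square distance between log2 levels centred over the 6 libraries, among 11890 tested genes with ordinary symbols. Both groups enter this distance, so it follows the difference between them as well as the spread within them. For Uhrf1 they were Hjurp, the chaperone gene of the centromeric histone, at a distance of 0.159, Fen1, the flap endonuclease gene of replication, at 0.180, and Pold1, a replicative polymerase gene, at 0.192. For Dnmt1 they were Micall2 (0.176), Klhl21 (0.181) and Gadd45g (0.195), for Dnmt3a Zfp609 (0.0971), Lonp1 (0.142) and Tspan5 (0.143), and for Dnmt3b Srpk1 (0.0674), Mrpl45 (0.0771) and Itpa (0.0884). For Tet2 they were Cdc73 (0.0542), Clip1 (0.0664) and Fam120c (0.0683), for Tet3 Zfp462 (0.251), Itprid2 (0.289) and Sh2b1 (0.326), and for Tdg Vps4a (0.0431), Dhx34 (0.0517) and Nsf (0.0548). In limma the nearest genes of Dnmt3a and Tet3 all fell, while none of those of Uhrf1, Dnmt1, Dnmt3b, Tet2 or Tdg passed. They were picked for levels like those of the member in both groups. Such calls largely follow from the choice and are no separate result.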

How the data were processed

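Total RNA was depleted of ribosomal RNA and made into strand-specific libraries by the dUTP method, per the labels' protocols. Trimmomatic, HISAT2, StringTie and the build mm39 are named in the submitters' processing notes. Versions and the strand setting of the assembly are not given in the sources used here. The deposited tables hold the authors' FPKM for 153503 transcripts in each library, 12776 of them without a gene name, per the file headers. The deposited coverage divided by FPKM gave the aligned bases. Read counts were not used, and no counting intervals are given.

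FPKM was summed over named transcripts per gene, and per locus for unnamed transcripts. Scaling was by the median of ratios over 15389 genes. Genes with a longest transcript under 200 nt or a mean under 0.5 were left out. log2(scaled FPKM + 0.5) was tested with limma 3.58.1 in R 4.3.3 (lmFit, eBayes with a trend), with Benjamini-Hochberg adjustment over 18893 genes and a threshold of 0.05. The code was tested on simulated data. Shares and ratios were tested by exact two-sided permutation over libraries. Values per start or transcript use the main scaling, and gene values with unnamed transcripts have their own. Among the 19 alternatives were 0.1 or 1 added in place of 0.5, no filter, and a filter at a mean of 1. Others used FPKM as deposited, an equal sum of FPKM, quantile normalization, or removal of the length trend. The rest were eBayes without a trend, robust eBayes, library weights, a threshold of 0.01, unnamed transcripts added, and each of the 6 libraries left out. Results of several are in the closing section.

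The 9 genes, the 6 lists and 7 marker lists were chosen with earlier results of these data known. The rule for names covers each member with its transcripts holding at least 10% of it in any library, and of these the text names the leading ones and those that differ in their start or end, not all. It also names up to 4 called genes per list by adjusted p (otherwise the 2 most abundant) and the 3 nearest genes per member. Marker lists beyond Sertoli and germ cells are given in the closing section. RefSeq windows (GRCm38.p6) were linked to transcripts by identifier within GRCm38, and no coordinates were converted. Figures used matplotlib 3.10.9.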

Additional observations from a re-analysis of the deposited data

How the results depend on the processing

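The number of genes called, 3858, was 1120 with no filter on low values, 8120 with an equal sum of FPKM, 1859 with the length trend removed, 9522 with library weights and 106 at a threshold of 0.01. Leaving out 1 library at a time gave 30 to 5763, with 30 without GFP-positive 7, 35 without GFP-negative M and 5763 without GFP-negative 9. Of the 9 genes, 2 were called, and 1 was with no filter or the length trend removed (Tet3), 6 with an equal sum (Dnmt1, Dnmt3a, Tet1, Tet2, Tet3 and Tdg, all lower), 5 with library weights (Uhrf1 higher, and Dnmt3a, Tet2, Tet3 and Tdg lower) and 0 at 0.01, where 4 had an unadjusted p under 0.05. Leaving out 1 library gave 0 to 2, with 0 in limma without GFP-positive 7 or GFP-negative M, where 2 and 3 of them had an unadjusted p under 0.05. With an equal sum 561 genes rose and 7559 fell, against 2242 and 1616 otherwise. Tet3 and Dnmt3a kept their direction under all 19 alternatives. Dnmt3b was -0.10 with an equal sum. Differences that turned when 1 library was left out were small against their spread. They ranged from -0.82 to 0.053 percentage points for the Dnmt3l share, -0.76 to 1.67 for the Tet1 share, -18.4 to 2.29 for the leading transcript of Dnmt3a, -10.2 to 1.36 for that of Tet2, -6.42 to 9.67 for that of Tet3 and -1.64 to 2.97 for that of Tdg. The Tet3 value was -0.11 with unnamed transcripts added, against 1.50. For these the cause was not tested. Without 1 library an exact p cannot go below 0.2. No paired analysis was possible because the groups share no replicate numbers.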

Other observations

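Markers of other cells that the lines could hold were low in some lists and high or uneven between libraries in others. Of the 4 tested Leydig cell markers, 5 peritubular myoid markers, 4 fibroblast markers and 1 endothelial marker, none passed in limma. With unnamed transcripts added 1 Leydig, 2 myoid and 2 fibroblast markers fell, Col1a1 (-4.21, adjusted p = 0.0352) and the smooth muscle actin gene Actg2 (-2.19, 0.0370) among them. Without GFP-negative 9 it was 1, 2 and 3, and with an equal sum of FPKM 2, 3 and 2, with the endothelial marker too. Leydig markers summed to 35.5 to 87.2 scaled FPKM in GFP-positive and 69.2 to 85.4 in GFP-negative libraries, led by Cyp11a1 (37.5 ± 16.0 and 37.0 ± 18.0, SD, n = 3 each) and Star (15.2 ± 5.01 and 30.3 ± 20.0). Myoid markers summed to 49.2 to 472 in GFP-positive and 132 to 525 in GFP-negative libraries, led by Acta2. Fibroblast markers summed to 10.6 to 18.9 in GFP-positive libraries, against 16.1 in GFP-negative 9, 702.6 in GFP-negative 11 and 146 in GFP-negative M, led by Col1a1. Macrophage markers summed to 1.65 to 2.25 in GFP-positive and 3.55 to 7.72 in GFP-negative libraries. Of 5 listed, 2 were tested, 1 higher and 1 lower in GFP-positive libraries. The lower one was Lyz2, the lysozyme gene, which fell (log2 change -1.84, SE 0.37, limma adjusted p = 0.0181). It did not pass without GFP-positive 4 (0.0518), GFP-positive 7 (0.0714) or GFP-negative M (0.0826), nor with no filter (0.0587). Endothelial markers summed to 3.47 to 6.31 in GFP-positive and 7.37 to 12.1 in GFP-negative libraries. Their part in the results for the methylation genes was not tested.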
